A study of Mus musculus with 3 samples.

Results

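Open chromatin was examined around 7 genes of the TALE homeobox class, *Meis1*, *Meis2*, *Meis3*, *Pbx2*, *Pbx3*, *Pbx4* and *Pknox1*, which were taken by name from the 21670 protein-coding genes with a start on chromosomes 1 to 19 and X. For each gene the window ran from 200 kb before to 200 kb past the gene body in mm10 (GRCm38), and it was divided into bins of 500 bp. The sequenced cells were long-term haematopoietic stem cells (HSCs), isolated by FACS as LSK CD48− CD150+ CD34− cells from the bone marrow of wild-type C57BL6/J mice aged 8 weeks. They were profiled by DOGMA-seq, which reads open chromatin (ATAC), RNA and surface-bound antibody tags from the same cells. There was 1 ATAC library and no other group of mice, and neither the labels nor the methods state how many mice were pooled for it. No value below has a replicate, no p-value is given, and all intervals are exact 95% intervals that cover counting error only. Of 3757 called cells, 3108 (82.7%) had more than 3000 fragments in peaks and were used, with a median of 11460 fragments per cell.

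TALE proteins carry a homeodomain with a short extra loop, and they bind DNA mainly as partners of each other. MEIS proteins and PKNOX1 (also called PREP1) each pair with PBX proteins, and PBX and MEIS proteins in turn join HOX proteins on DNA. In blood, *Meis1* is known as a gene that HSCs need for their maintenance. *Pbx2*, *Pbx3* and *Pbx4* encode PBX proteins, and *Meis2* and *Meis3* encode relatives of MEIS1.

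A fragment is the piece of DNA between a pair of transposase cuts, and many fragments in a bin mean that the DNA there was accessible. The 37137164 fragments of the 3108 cells gave a mean of 7.05 per bin, and a bin was called open at 5 or more times that mean, which required 36 fragments. By this rule 2.35% of all bins were open. Touching open bins were joined into a site, which was classed by its highest bin. The 7 windows held 153536 fragments and 170 open sites.

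The sequences below belong to the open sites on which the comparison of promoters with intronic and distal sites turns. They are given 5′ to 3′ on the strand of the gene, with capitals at matches to short strings taken from known binding preferences on either strand. The promoter pieces come from the RefSeq promoter table (GRCm38.p6), which held 5 of the 7 genes, and lie before the annotated start. *Pbx3* and *Pknox1* were not among them. The pieces of 3 other genes lay largely in annotated exons and are not shown. The remaining windows were read from the GRCm38.p6 genome around the summit of each site, meaning the median midpoint of the fragments in its highest bin that were shorter than the DNA wound on a nucleosome.

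The *Pbx2* promoter, at chr17:34592009-34592258 on the plus strand, and the *Pbx4* promoter, at chr8:69832374-69832475 on the plus strand, show a CpG-rich and a less CpG-rich start. Capitals mark GGGCGG, the string of SP and KLF factors, in *Pbx2*. In *Pbx4* they mark AGGAAGT, a string of ETS factors, and the CCAAT box.
Pbx2 promoter: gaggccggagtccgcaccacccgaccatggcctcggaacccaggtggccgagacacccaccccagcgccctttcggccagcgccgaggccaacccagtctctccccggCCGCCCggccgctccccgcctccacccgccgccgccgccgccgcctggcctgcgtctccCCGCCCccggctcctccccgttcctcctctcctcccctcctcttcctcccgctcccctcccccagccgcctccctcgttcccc
Pbx4 promoter: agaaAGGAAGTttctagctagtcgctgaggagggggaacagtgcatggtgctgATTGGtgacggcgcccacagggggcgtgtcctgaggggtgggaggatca

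Both of the most accessible intronic sites of *Meis1* are shown because the first of them exceeded the promoter in its highest bin. The first lies at chr11:18970041-18970290 and the second at chr11:18925000-18925249, both on the minus strand. Capitals mark AGATAA, a string preferred by GATA-family factors, and AGGAAGT, one of ETS-family factors. In the second site they also mark TGACAG, the string of MEIS proteins.
Meis1 intron site 1: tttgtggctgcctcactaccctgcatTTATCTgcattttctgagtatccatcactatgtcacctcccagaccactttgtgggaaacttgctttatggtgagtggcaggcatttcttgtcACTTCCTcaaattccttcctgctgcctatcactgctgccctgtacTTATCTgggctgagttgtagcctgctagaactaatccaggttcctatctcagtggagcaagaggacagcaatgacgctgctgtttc
Meis1 intron site 2: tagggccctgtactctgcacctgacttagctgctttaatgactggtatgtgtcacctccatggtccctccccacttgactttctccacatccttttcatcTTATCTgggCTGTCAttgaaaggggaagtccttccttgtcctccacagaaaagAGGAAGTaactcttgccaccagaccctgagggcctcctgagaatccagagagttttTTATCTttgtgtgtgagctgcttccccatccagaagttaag

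The strongest distal sites of *Meis1* and *Meis2* lie past the 3′ end of each gene, at chr11:18877616-18877865 and chr2:115855843-115856092, both on the minus strand. Capitals mark a string of the CTCF core in both, and AGATAA in *Meis2*.
Meis1 intergenic site 1: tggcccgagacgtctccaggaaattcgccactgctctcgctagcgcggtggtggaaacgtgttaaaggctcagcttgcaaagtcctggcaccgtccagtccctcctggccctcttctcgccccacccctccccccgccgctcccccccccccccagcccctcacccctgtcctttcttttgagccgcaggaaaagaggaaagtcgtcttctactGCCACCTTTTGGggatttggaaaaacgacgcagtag
Meis2 intergenic site 1: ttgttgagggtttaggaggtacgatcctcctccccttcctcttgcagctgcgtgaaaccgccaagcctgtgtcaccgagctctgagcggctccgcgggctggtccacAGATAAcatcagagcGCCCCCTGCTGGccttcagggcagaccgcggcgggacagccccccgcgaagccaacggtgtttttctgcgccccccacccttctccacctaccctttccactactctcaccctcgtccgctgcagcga

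All 7 promoters were open, where 66.6% of all protein-coding genes had an open promoter. Their levels, taken as the highest 500-bp bin within 500 bp of a protein-coding start, covered a 37.9-fold range. *Pknox1* (chr17:31564734-31607693, plus strand) was the most accessible. Its promoter bin held 4743 fragments (4609 to 4880), which was 673 times the mean bin and ranked 7 of 21670 genes. The centre of this bin lies in exon 1.

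The next 4 members lay close together, above most genes. The *Pbx4* promoter held 908 fragments (850 to 969), 129 times the mean, at percentile 79.5 of all promoters. *Meis1* (chr11:18879817-19018985, minus strand) followed with 780 fragments (726 to 837), 111 times the mean. The *Pbx2* promoter held 679 fragments (629 to 732) and that of *Pbx3* 628 (580 to 679).

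*Meis2* and *Meis3* formed the lower end. The *Meis2* promoter (gene at chr2:115863064-116065839, minus strand) held 208 fragments (181 to 238), 29.5 times the mean and at percentile 50.7. The *Meis3* promoter (gene at chr7:16175090-16186504, plus strand) held 125 fragments (104 to 149), 17.7 times the mean and at percentile 43.5. The median promoter of all genes held 199 fragments, so *Meis2* was near that median and *Meis3* below it.

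**Figure D1:**
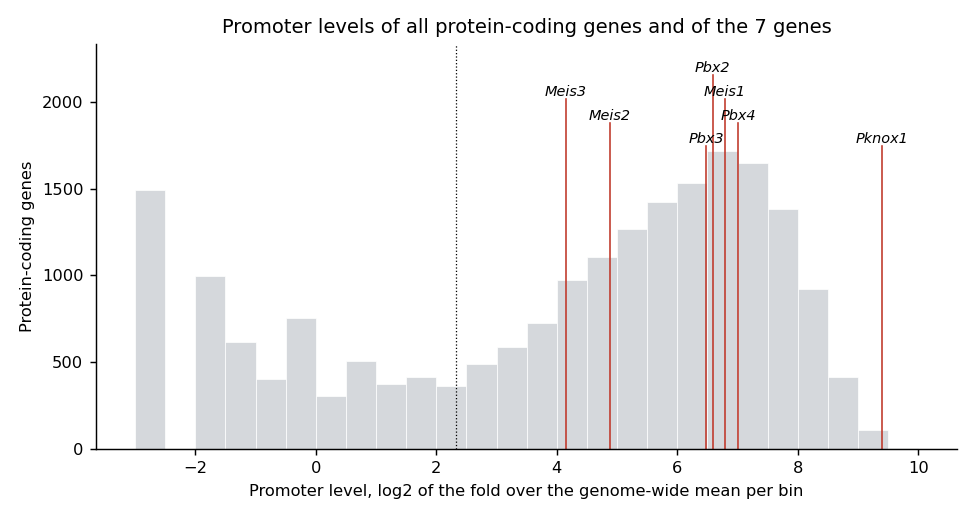
Number of protein-coding genes (y axis) by promoter level (x axis, log2 of the fold over the mean bin); 1138 genes whose promoter bins held no fragment are left out, the dotted line is the open threshold of 5 times the mean, and red lines mark the 7 genes. *Pknox1* sat at the far right at 673 times the mean, while *Meis3* and *Meis2* sat lowest of the 7 at 17.7 and 29.5 times.

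Between members, 20 of the 21 pairs of promoters differed by more than counting error. The exception was *Pbx2* against *Pbx3*, with a log2 ratio of 0.11 (−0.05 to 0.27). Among the other neighbours in the order, *Pknox1* exceeded *Pbx4* 5.22-fold (4.87 to 5.61), and *Pbx4* exceeded *Meis1* only 1.16-fold (1.06 to 1.28). *Meis1* exceeded *Pbx2* 1.15-fold (1.04 to 1.28). The intervals of these small steps cover counting error only. Of 77 promoter levels recomputed under alternative settings, 27 fell outside their main interval. The order of *Pbx4*, *Meis1* and *Pbx2* may therefore depend on the setting. The step from *Pbx3* down to *Meis2* was 3.02-fold (2.58 to 3.55), and *Meis2* exceeded *Meis3* 1.66-fold (1.33 to 2.09). The order of *Pbx2* and *Pbx3* depended on the cells. In the shallower of 2 equal sets of cells, split by fragments per cell, *Pbx2* was at 115 times the mean and *Pbx3* at 82.6, whereas in the deeper cells *Pbx2* was at 85.4 and *Pbx3* at 92.8.

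*Meis1* was the only member with an intronic bin above its promoter, among the 6 members that had intronic bins (the 6.13-kb *Pbx2* gene had none). Bins that touched an exon were classed as exonic and not as intronic. Over all genes with an intronic bin 23.7% showed this. The share was also 23.7% among the 2029 genes of 100 kb or more with an open promoter, so the pattern itself was not rare among genes as long as *Meis1* (139 kb). The bin, at chr11:18970001-18970500, held 992 fragments (931 to 1056) and lay 48.5 kb downstream of the promoter start, in the intron after exon 7 of the longest protein-coding transcript. Against the 780 fragments of the promoter bin the log2 ratio was 0.35 (0.21 to 0.48).

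The size of that ratio depended on where the bins fell. With the grid shifted by 250 bp it was 0.03 (−0.11 to 0.17), and with the densest 500 bp at any position in each class it was 0.17 (0.04 to 0.30). It was 0.71 (0.54 to 0.89) with only fragments shorter than the DNA wound on a nucleosome and 0.19 (−0.08 to 0.46) with every cell thinned to 3000 fragments. Taken as whole sites, the order turned, since the 4000-bp *Meis1* promoter site held 2192 fragments and the 1500-bp intronic site 1183. The intronic site was thus narrower, with a peak of about the height of the promoter.

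The *Meis1* body held 16 intronic open sites, a count above that of 97.1% of the 2481 genes of 100 kb or more, whose median was 2. The second site had 419 fragments (380 to 461) in its highest bin and 635 in all, in the intron after exon 8, 93.5 kb from the start. The next had 164 (140 to 191) in its highest bin and 551 in all, in the intron after exon 6, 11 kb from the start, and its summit lay 1277 bp from the start of an annotated transcript of unknown coding status. The remaining 13 sites had summits of 36 to 120 fragments. Besides these sites the whole body was raised. The median intronic bin of *Meis1* held 14 fragments, a level above 99.6% of the long genes, whereas the median intergenic bin of its window held 1.

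*Meis2* and *Pbx3* are longer than *Meis1*, at 203 kb and 202 kb, yet each had 2 intronic open sites and a median intronic bin of 1 fragment. At least 1 intronic open site was found in 78.5% of the long genes. The higher *Meis2* site held 82 fragments and lay 70 bp from the start of a non-coding *Meis2* transcript, and the other held 57 at 149 kb. In *Pbx3* the sites held 89 fragments at 12.9 kb and 52 at 123 kb. The highest intronic bin of *Pbx3* was well below its promoter, with a log2 ratio of −2.82 (−3.16 to −2.50). That of *Meis2*, at −0.79 (−1.13 to −0.46), belonged to the broad promoter site itself.

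No separate open site of the intronic class was found in *Meis3*, *Pbx4* or *Pknox1*. The highest intronic bins of *Meis3* and *Pbx4* held 24 and 32 fragments and were under the open threshold. In *Pknox1* it held 205 fragments, inside the promoter site, with a log2 ratio to the promoter of −4.53 (−4.74 to −4.33). For *Pbx4* the log2 ratio was −4.83 (−5.38 to −4.32), so *Pbx4* and *Pknox1* had no intronic bin near the height of their promoter. Their introns were not low per bin, with medians of 6 and 4 fragments, above 94.4% and 83.2% of the long genes. The median of *Meis3*, 5 fragments, was above 90.7% of the long genes. *Meis3* differed from *Pbx4* and *Pknox1*, since its body held 2 open sites whose highest bins touched an exon but had their centres in introns. The higher of these bins, 8.475 kb from the start and centred in the intron after exon 8, held 137 fragments (115 to 162) beside 125 at the promoter. The log2 ratio of 0.13 (−0.23 to 0.49) did not set it apart from the promoter. The other held 66 fragments, centred in the intron after exon 4. With bins that touched an exon counted as intronic, *Meis3* was thus a second member with a body bin above its promoter, against 28.1% of all genes.

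**Figure D2:**
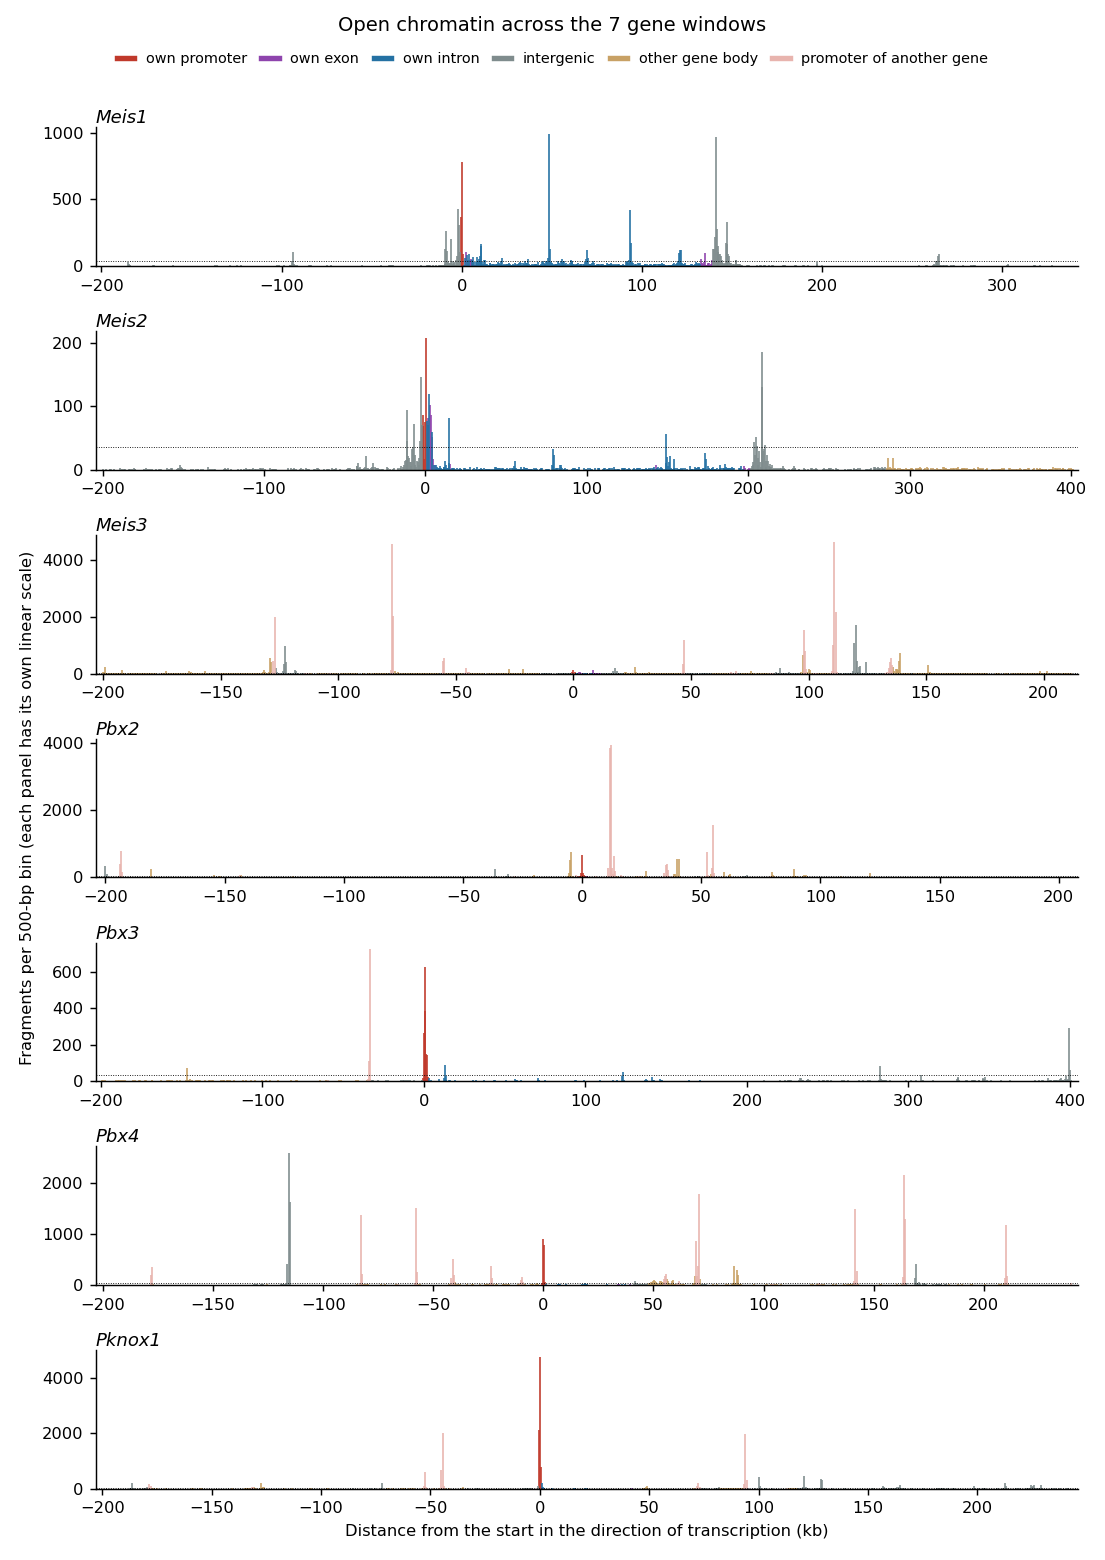
Fragments per 500-bp bin (y axis, linear, its own scale in each panel) against distance from the start in the direction of transcription (x axis, kb) for the 7 windows, coloured by class, with a dotted line at the open threshold of 35.25 fragments. *Meis1* shows peaks inside the gene and past its 3′ end that reach 992 and 969 fragments beside 780 at the promoter, and *Pknox1* shows 1 peak of 4743 fragments at its start.

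Distal bins, which were intergenic or inside another gene and not at a protein-coding start, exceeded the promoter in 4 of 7 members, against 48.4% of genes with an open promoter. These were *Meis1*, *Meis3*, *Pbx2* and *Pbx4*. When starts of every transcript type in GENCODE and RefSeq counted as promoters, only *Meis3* kept a higher distal bin. Several of these bins therefore lay at other annotated starts, as their positions show. The share of all genes was not computed with starts of every type, so 48.4% is no background for that count.

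The highest distal bin of *Meis1*, at chr11:18877501-18878000, held 969 fragments (909 to 1032), 2.07 kb past the 3′ end of the gene. Its log2 ratio to the promoter was 0.31 (0.18 to 0.45), but −0.33 (−0.48 to −0.18) with the grid shifted by 250 bp. In RefSeq the bin centre lay 140 bp from a start of the long non-coding RNA 8430419K02Rik. Without such starts the ratio was −0.86 (−1.03 to −0.69). The site was 6000 bp wide, wider than 99.8% of open sites away from promoters, and its 2314 fragments in all were close to the 2192 of the *Meis1* promoter site. A further site 8.07 kb past the 3′ end held 333 fragments in its highest bin and 827 in all, 405 bp from a start of the same non-coding gene.

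*Meis2* also had its strongest distal site past the 3′ end of the gene, at 7.31 kb, with 186 fragments (160 to 215) in its highest bin and 317 in all. This bin could not be told from the promoter bin in level, with a log2 ratio of −0.16 (−0.45 to 0.13), and was above it with the shifted grid, at 0.62 (0.35 to 0.89). Upstream, a bin of 146 fragments 2.74 kb before the start lay 25 bp from the start of the non-coding gene G630016G05Rik.

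In the other windows the highest distal bin lay far from the member or beside another gene. For *Meis3* it held 1713 fragments (1633 to 1796), 120 kb from the start and 8455 bp from the nearest coding start, that of *Ccdc9*, with a log2 ratio of 3.78 (3.51 to 4.05). For *Pbx4* it held 2596 fragments, 116 kb upstream and 87 bp from a RefSeq start of *Zfp869*, and the log2 ratio of 1.52 (1.41 to 1.63) became −1.17 without bins at RefSeq starts. For *Pbx2* it held 761 fragments within *Notch4*, 4.51 kb upstream, with a log2 ratio of 0.16 (0.01 to 0.32). That ratio was negative in the shallower cells and without non-coding starts. *Pbx3*, at −1.12 (−1.32 to −0.91), and *Pknox1*, at −3.40 (−3.54 to −3.26), had no distal bin as high as their promoter.

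**Figure D3:**
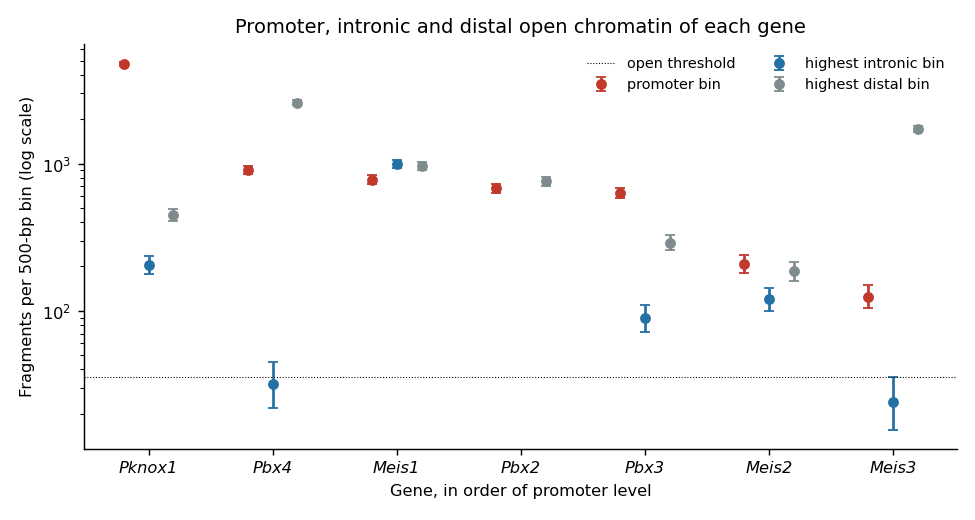
Fragments per 500-bp bin (y axis, log scale) at the promoter, the highest intronic and the highest distal bin of each gene, with exact 95% Poisson intervals and a dotted line at the open threshold; *Pbx2* had no intronic bin. The intronic point lies above the promoter point in *Meis1* (992 against 780) and below it in the other 5 genes that have one.

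The windows also differed in how their fragments were divided. Introns of *Meis1* took 44.5% (43.7 to 45.3) of the fragments of its window, against 28.7% in *Meis2*, 14.6% in *Pbx3* and no more than 2.21% in the other 4. The member's own promoter took 29.5% in *Pknox1* and 28.3% in *Pbx3*, but 7.79% in *Meis1* and 0.513% in *Meis3*. No promoter of another protein-coding gene lay among the open sites of the *Meis1* and *Meis2* windows. Such promoters took 55.6% of fragments in the *Meis3* window, 58.1% in that of *Pbx2* and 53.9% in that of *Pbx4*. Whole windows ranged from 0.504 times the mean per bin for *Meis2* and 0.670 for *Pbx3* to 7.59 for *Meis3*. The *Meis3* window was therefore the most accessible although its own promoter was the lowest of the 7.

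**Figure D4:**
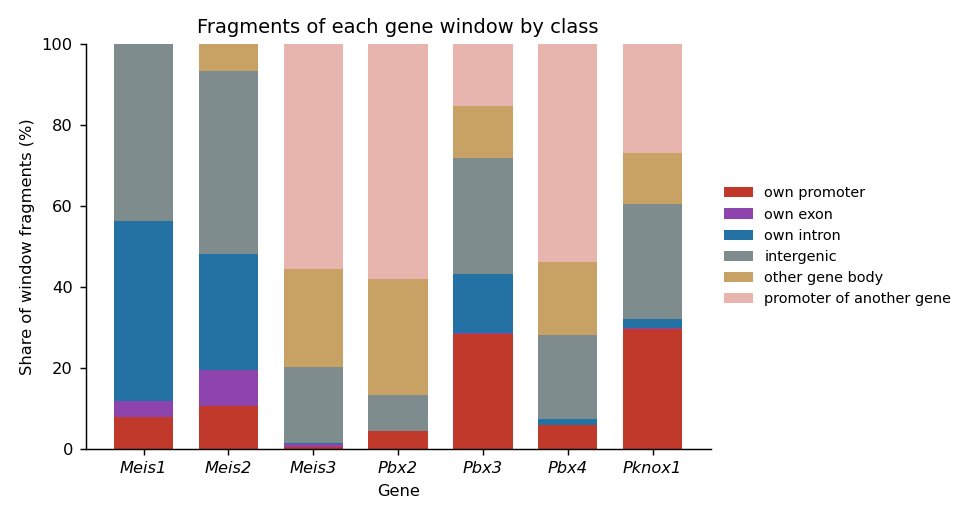
Share of the fragments of each window (y axis, percent) in 6 classes of bin, 1 stacked bar per gene. Own introns made up 44.5% of the *Meis1* bar, whereas promoters of other genes made up more than any other class in *Meis3*, *Pbx2* and *Pbx4*.

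Fragment lengths set the promoters apart as well. Short fragments, meaning those shorter than the DNA wound on a nucleosome, made up 82.4% at the *Pbx4* promoter, 80.1% at *Pknox1*, 75% at *Pbx2*, 61.8% at *Pbx3* and 56.4% at *Meis1*. At *Meis3* they made up 40.8%. At *Meis2* they made up 28.8%, and only 5.32% of promoter sites over the genome, whose median was 58.6%, had a lower share. The *Meis2* promoter site was 5000 bp wide, wider than 98.7% of promoter sites, and its highest bin held 208 of 934 fragments. Its CpG content was high, with an observed over expected ratio of 0.937. *Meis2* thus had a wide, low site with few short fragments. The promoter sites of *Pbx4* (1500 bp wide) and *Pknox1* (3000 bp) had mostly short ones.

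At *Meis1* the intronic site was richer in short fragments (72.8%) than the promoter. Within 2 kb of the promoter summit there were 2 peaks of short fragments of equal height, with 142 per 50 bp. They were centred 262 bp and 1762 bp upstream of the protein-coding start nearest the promoter bin, chr11:19018714. The annotated gene reaches farther upstream, to chr11:19018985, so the nearer peak lay beside its outer end. The farther peak gave bins of 309 and 430 fragments within the same site, outside the promoter bins. The intronic site had 1 peak of 155 short fragments per 50 bp, and longer fragments reached 40.

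**Figure D5:**
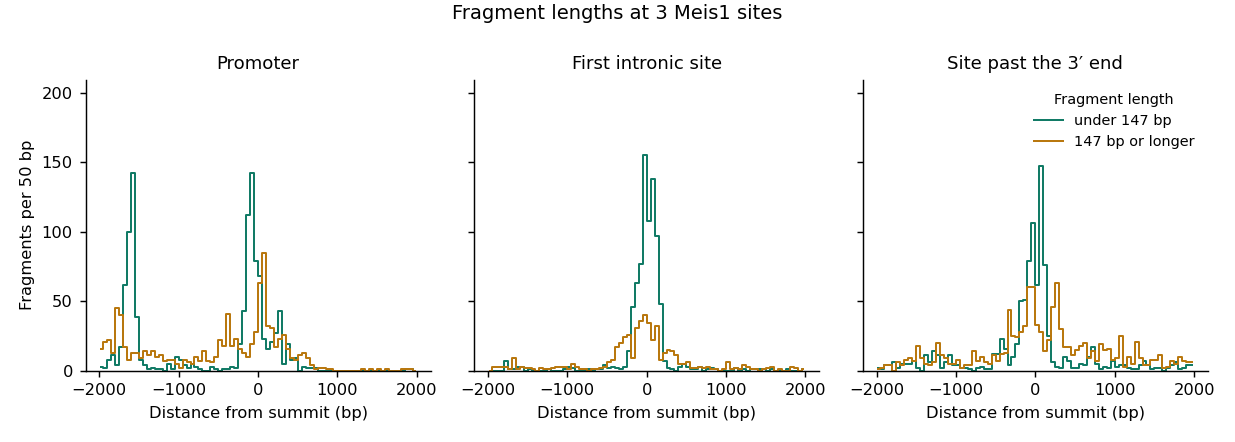
Fragments per 50 bp (y axis) against distance from the summit of the site (x axis, bp, negative is upstream) at the promoter, the most accessible intronic site and the site past the 3′ end of *Meis1*, for short fragments (green) and longer ones (orange). Short fragments peak at 142 in each of the 2 promoter peaks and at 155 in the intron.

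Both printed intronic sites of *Meis1* held 2 AGATAA strings and 1 AGGAAGT string, and they had 1 and 0 CpG pairs in 250 bp. Among 45437 open sites away from promoters AGATAA was found in 23.2% of highest bins and AGGAAGT in 22.7%. Those bins are 500 bp long, longer than the printed pieces. Of the 27 *Meis1* sites outside the promoter, 10 held AGATAA and 11 held TGACAG, which is in 32.1% of such sites over the genome. The median GC content was 43.6% in the 27 sites and 48.6% over the genome, and the counts were not adjusted for it. The CTCF string was in 18 of 100 distal sites of the 7 windows and in none of the 20 intronic sites, 16 of which belong to *Meis1*, against 18.8% over the genome. No difference between classes was tested. Both sites past the 3′ ends of *Meis1* and *Meis2* held it, together with 15 and 18 CpG pairs. The *Pknox1* promoter bin held GGGCGG 11 times, a string present in 73.8% of promoter sites. TGATTNAT, a PBX-HOX string, was in 10 of the 170 sites, against 5.31% of all open sites. The other strings searched on both strands were TGTGGT for RUNX factors (57 of the 170 sites, 35.3% of all open sites), TGANTCA for AP-1 (26, against 14.8%) and CCGGAA for ETS factors (24, against 14.7%). A match is a match of letters and not a bound site.

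Per cell, a *Pknox1* promoter fragment was seen in 75.7% (74.2 to 77.2) of the 3108 cells, and 43.6% had 2 or more. The share was 23.8% for *Pbx4*, 20.4% for *Meis1*, 18.2% for *Pbx2*, 16.4% for *Pbx3*, 6.08% for *Meis2* and 3.64% (3.01 to 4.36) for *Meis3*. The *Meis1* intronic site was seen in 24.0% of cells. As a background, promoters of 12 B cell, T cell and myeloid genes were seen in 0.0322% to 1.03% of the same cells. With every cell thinned to 3000 fragments, the shares became 33.7% for *Pknox1*, 6.50% for *Meis1* and 0.708% for *Meis3*.

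The label of the cells was checked at the promoters of marker genes. Among HSC genes, *Hlf* (1345 fragments), *Kit* (640) and *Mecom* (567) were open and lay above the median promoter of 199 fragments. *Procr* (132), *Slamf1* (70) and *Tek* (64) were open but lay below it, and *Ly6a*, which encodes Sca-1, was not open (21 fragments). None of the 4 B cell, 4 T cell and 4 myeloid promoters was open. Among erythroid genes the promoters of *Epor*, with 370 fragments, and *Klf1*, with 42, were open, and the part of other cell types in the values of the members was not tested.

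Other TALE genes and partners were open at a share close to that of the members. Of 16 genes 15 had an open promoter, against 66.6% of all genes, with a median of 47.2 times the mean against 96.3 for the 7 members and 28.2 for all genes. Among the HOX partners *Hoxa7* held 1186 fragments, *Hoxa9* 902, *Hoxb5* 609, *Hoxa5* 592, *Hoxa10* 504 and *Hoxb4* 364, while *Hoxb3*, with 11, was the gene that was not open. The repressors *Tgif2* and *Tgif1* held 486 and 363, and *Pbxip1*, which encodes a PBX-binding protein, held 303. *Pknox2*, the relative of *Pknox1*, held 159, and *Mkx* and 4 Irx genes held 83 to 183.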

How the data were processed

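The 1 ATAC library was mapped by the authors with Cell Ranger ARC 2.0.2 to mm10. They deposited counts: the read pairs behind each unique fragment, and fragments per barcode, neither normalized. RNA counts per gene and antibody tags were not used here. Chromosome lengths matched GRCm38, and genes came from GENCODE M21.

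Cells with is_cell 1 and over 3000 fragments in peaks were kept, doublets included. Each fragment was counted once, in the 500-bp bin of its midpoint. Intervals were exact Poisson, Clopper-Pearson or, for ratios of 2 counts, conditional binomial. Open sites needed 5 times the mean bin. Python 3.11.15, numpy 2.4.6, scipy 1.17.1, pandas 2.3.3 and matplotlib 3.10.9 were used, and the steps were tested on simulated data. Alternatives changed cells, fragments, bins, thresholds, flanks and starts. The starts of every transcript type (GENCODE, or with RefSeq), the densest window, the exonic bins counted as intronic, the splits of cells by depth and the called cells under the cut-off were chosen after seeing the data.

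The genes and lists were chosen with earlier results of these data known. Named were all 7 genes, with for each up to 3 intronic and 2 distal sites with most fragments in the highest bin, the 2 most open neighbouring promoters, and the list of TALE genes and partners. Non-coding genes, the exonic sites of *Meis3*, *Notch4*, *Zfp869* and single markers were named after their values were seen. The HSC and erythroid marker lists are not reported in full here.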

Additional observations from a re-analysis of the deposited data

How the results depend on the processing

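No paired analysis was possible because there is 1 ATAC library and no replicate. All 7 promoters were open under every alternative run for them. The number of members with an intronic bin above the promoter was 1 under every alternative run for it, except that it was 2 with bins that touched an exon counted as intronic, where the *Meis3* log2 ratio turned to 0.13 (−0.23 to 0.49) by construction. The total of open sites ranged from 116 (flank of 100 kb) to 236 (open at 3 times the mean). The number of members with a higher distal bin fell from 4 to 1 with GENCODE and RefSeq starts of every type, by the construction of that alternative. Introns took 43.1% of the *Meis1* window with short fragments only, 43.4% with the shifted grid, 42.4% with bins of 1000 bp and 47.1% with a flank of 100 kb. The log2 ratio of the *Pknox1* to the *Meis3* promoter was 5.86 (5.25 to 6.53) with cells thinned to 3000 fragments. Cells with a *Pknox1* promoter fragment were 66.6% of all called cells and 33.7% after thinning. The *Meis2* distal ratio, whose interval included 0 (−0.16), was above 0 with the shifted grid (0.62), the densest window (0.47), short fragments only (0.96) and thinned cells (0.16, −0.47 to 0.79). Of the distal against promoter log2 ratios whose interval did not include 0, those that changed sign were those of *Meis1* (−0.33 with the shifted grid, −0.86 with RefSeq starts), *Pbx4* (−1.17 with RefSeq starts) and *Pbx2* (−0.29 with starts of every transcript type, −0.29 also with RefSeq starts, −0.16 in the shallower cells, −0.25 in the called cells under the cut-off). The intron against promoter log2 ratio of *Meis1* stayed above 0 in every alternative run for it, but its interval included 0 with thinned cells (0.19), the shifted grid (0.03) and the called cells under the cut-off (0.13). For the grid and the depth of cells the cause was not tested. The 63 recomputed ratios between promoters of members covered only all called cells, the cells without the 10% deepest and the thinned cells. None of them changed sign where the interval of the main ratio left out 0. These ratios were not recomputed with the shifted grid, other bin sizes, other fragment choices or the splits of cells by depth. At this depth the 24 fragments of the *Meis3* intron bin gave an interval of 15.4 to 35.7, so weak sites could not be told from the threshold.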

Other observations

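Promoters of neighbouring genes in the windows are given here beside the 66.6% of all protein-coding genes that had an open promoter. In the *Meis3* window 9 of 11 neighbouring protein-coding genes had an open promoter, led by *Ccdc9* with 4641 fragments and *Napa*, which encodes a SNARE-recycling factor, with 4567. In the *Pbx2* window 10 of 15 were open, a share near that of all genes, led by *Agpat1* and *Rnf5*, which share a bin of 3932 fragments. In the *Pbx4* window 14 of 15 were open, led, by GENCODE protein-coding starts, by *Gatad2a* with 2168 and *Ndufa13* with 1792. The gene that was not open there, *Zfp869* with 4, has the RefSeq start beside the distal bin of 2596 fragments. In the *Pknox1* window 5 of 6 were open, and the highest bin, shared by *Ndufv3* and *Wdr4*, held 1996. *Mapkap1*, with 726 fragments, was the only neighbouring gene of *Pbx3* with a start in the window. The *Pbx3* window thus held 1 such start and the *Meis1* and *Meis2* windows held none.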
